A study of Mus musculus with 186 samples.

Results

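Among single cells sorted from the adult mouse mammary gland as epithelium, a few wells held RNA of blood vessel endothelium. These wells were set against the remaining wells of the same sort on all other genes. The gland of adult female FVB/NJ mice had been dissociated and stained, cells carrying the lineage antigens CD31, CD45 and Ter119 had been gated out, and the rest had been sorted as basal (CD29 high, CD24+) or luminal (CD29 low, CD24+) cells. The Fluidigm C1, an instrument that traps cells in the chambers of a chip and makes full-length cDNA from each, took up the sorted cells, and the chambers were looked at by microscope before lysis. All wells share this strain, stage and platform, no well was treated, and the labels tie no cell to a mouse, although the design counts 8 mice. Cells are therefore not replicates and each set of wells is a single sample, so the values are compared without a statistical test.

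The files hold 186 wells, 96 basal and 90 luminal, of which 148 pass the depth thresholds of the study (72 basal and 76 luminal). A well was called endothelial when at least 4 of 12 endothelial genes (Pecam1, Cdh5, Emcn, Kdr, Flt1, Tek, Tie1, Esam, Egfl7, Cldn5, Eng and Ptprb) reached 10 CPM, where CPM is a gene's read count scaled to 1000000 reads per well. This rule selected 9 wells: 5 basal (cells 63, 71, 72, 80 and 95) and 4 luminal (cells 25, 27, 55 and 71). The reference is the 61 basal and 67 luminal cells in which 0 of the 12 genes reached that level, and 6 basal and 5 luminal cells with 1 to 3 of them belong to neither set. The wells were thus chosen by measured values, and the levels of the 12 genes are a description only.

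Endothelial cells line every blood vessel. They are held together by junction proteins such as VE-cadherin (Cdh5) and PECAM-1 (Pecam1, the antigen CD31), they read vascular endothelial growth factor and angiopoietins through receptor kinases (Kdr, Flt1, Tek), and transcription factors of the ETS, SOX and KLF families keep their identity. In tissues rich in fat, such as the mammary fat pad, capillary endothelium also moves fatty acids from the blood to the tissue, with the fatty acid receptor Cd36, the carrier Fabp4 and the anchor of lipoprotein lipase, Gpihbp1, as known parts. Arteries, capillaries and veins each add genes of their own, and pericytes, contractile support cells, wrap the smaller vessels.

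The endothelial wells were not spread over the plates. Plate here means the PCR plate (A, B or C) of a well, and plate B held wells of both sorts. Whether a plate matches a capture chip or a day of sorting is not known here. All 5 basal ones lay on plate B, where they were 5 of 22 passing basal cells (22.7%, exact 95% interval 7.82 to 45.4), against 0 of 50 on plate A, which allows a share of up to 6% by a limit of 3 cells (exact upper limit 7.11%). All 4 luminal ones lay on plate C (4 of 52, 7.69%, interval 2.14 to 18.5), against 0 of 24 on plate B, which allows up to 12.5% (exact 14.25%). Over both plates the shares were 6.94% of basal cells (2.29 to 15.5) and 5.26% of luminal cells (1.45 to 12.9). Reference cells lay on the same plates too, 16 basal cells on plate B and 45 luminal cells on plate C, and the ratio against these alone is given beside the results where it bears on them. These intervals over cells cover counting error only, and cells of the same unnamed mouse are not independent. Intervals on read counts, given further on, cover the counting error of reads only. The libraries carry no molecular identifiers, so reads copied from the same molecule are counted apart. These intervals are therefore too narrow for molecules.

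The labelled markers were checked in each well. Pecam1 (chromosome 11, 106654213 to 106715281) had 37.3, 1.01, 134, 942 and 48.1 CPM in basal wells 63, 71, 72, 80 and 95, and 47.9, 352, 746 and 16.9 CPM in luminal wells 25, 27, 55 and 71. It was thus past 10 CPM in 8 of the 9 wells although the sort removes cells with its protein. Cdh5 (chromosome 8, 104101613 to 104144504) had 0, 0, 441, 106 and 9.48 CPM in the basal wells and 8.87, 102, 93.4 and 28.1 CPM in the luminal ones. Emcn, the sialomucin endomucin of capillaries and veins (chromosome 3, 137341062 to 137431069), had 833, 1935, 1393, 0 and 5.42 CPM in the basal wells and 614, 485, 34.0 and 217 CPM in the luminal wells. Ptprb, the vascular endothelial protein tyrosine phosphatase (chromosome 10, 116275502 to 116389538), was the rule gene found past 10 CPM in all 9 wells, with 25.2 to 1744 CPM in the basal and 367 to 1303 CPM in the luminal wells. The basal wells held 8, 5, 8, 8 and 6 of the 12 genes and the luminal wells 11, 10, 11 and 10. Single endothelial genes were therefore often at 0 in a basal well, and Cldn5, the tight junction protein claudin-5, had no read in any of the 5.

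Just inside the threshold lay basal well 71 with 5 of the genes (Emcn, Flt1, Tek, Esam and Ptprb). Just outside it lay basal well 82, also on plate B, with 3 (Pecam1 at 15.6, Emcn at 38.9 and Ptprb at 2107 CPM), and luminal well 33 on plate C with 2. All other wells between the sets had 1. Well 82 appears beside the endothelial wells in the heat map but in none of the sums.

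**Figure D1:**
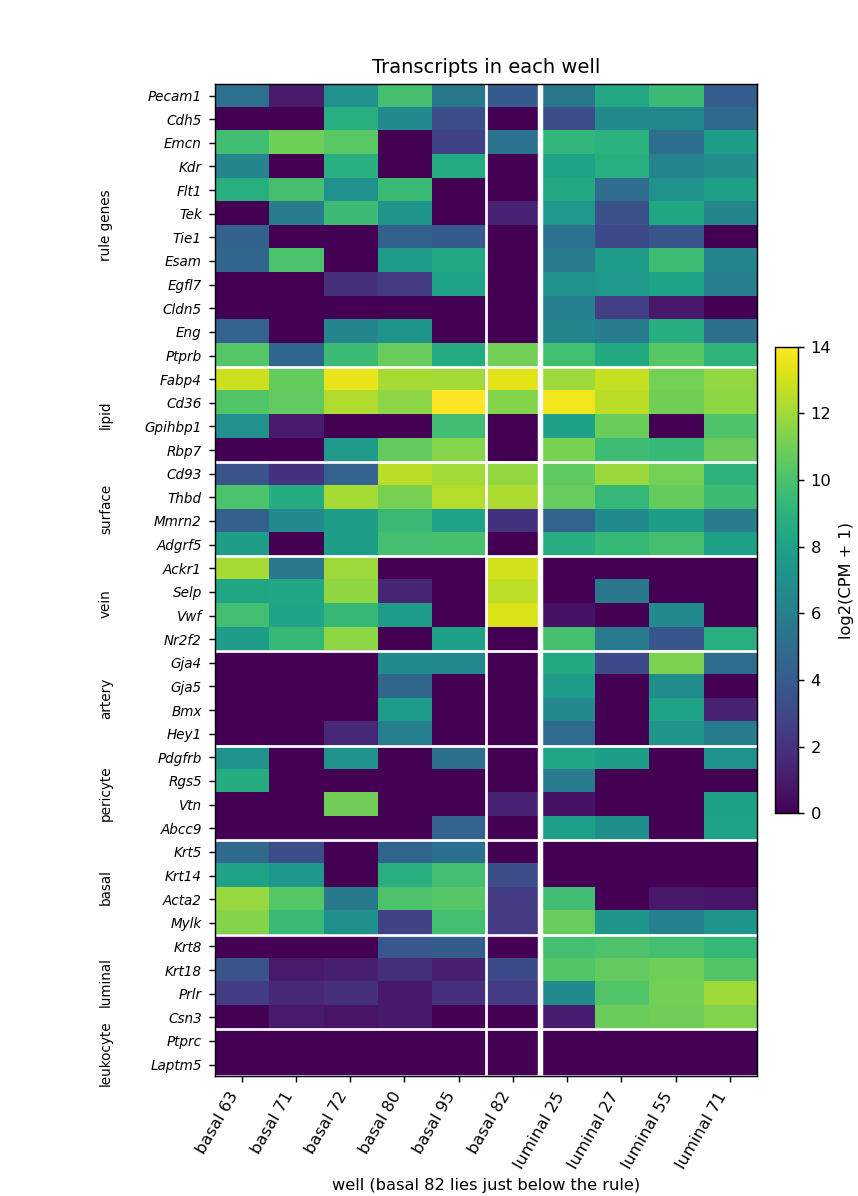
Heat map of log2(CPM + 1) of named genes (rows, grouped by list) in the 5 basal endothelial wells, basal well 82 and the 4 luminal endothelial wells (columns). Fabp4 and Cd36 are at 1184 CPM or more in each of the 9 endothelial wells, vein genes are high in basal wells 63, 71, 72 and 82, and Krt8 and Krt18 are at 632 CPM or more in the 4 luminal wells and at 16.2 CPM or less in the basal ones.

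Outside the rule, a feature common to the 9 wells was the fatty acid pair Fabp4 and Cd36. Fabp4, the adipocyte and capillary fatty acid carrier (chromosome 3, 10204342 to 10208616), had 7697, 1668, 12135, 4660 and 4332 CPM in the basal wells and 3969, 7041, 2143 and 3429 CPM in the luminal wells. The highest of 61 basal reference cells had 17.5 CPM and the highest of 67 luminal reference cells 161 CPM, so the sets did not overlap in either sort. Cd36 (chromosome 5, 17781690 to 17888959) had 1184, 1598, 5234, 3011 and 15851 CPM in the basal wells and 13164, 5940, 2028 and 3095 CPM in the luminal wells, and at most 38.7 and 183 CPM in a reference cell. The sets again did not overlap. How many other genes separate the sets in this way was not counted. On summed counts with 1 CPM added to each set, the log2 ratio of endothelial over reference wells was 11.74 (basal) and 10.37 (luminal) for Fabp4 and 11.38 and 10.23 for Cd36. On the same plate alone the ratios were 12.00 and 10.13 for Fabp4 and 11.62 and 9.78 for Cd36. Fabp4 and Cd36 were among the markers named for these wells with results known, so their level is no independent support of the label.

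A gene was called higher or lower when this log2 ratio was at least 3 in size and at least 50% of the wells of the higher set had 10 CPM, and 14763 genes were compared. In the basal sort 127 genes were called higher (0.86% of the genes compared) and 170 lower (1.15%). In the luminal sort 408 were called higher (2.76%) and 43 lower (0.291%). These shares are the background for each count of list members called below, so an absence of calls in a short list says little. Against reference cells of the same plate, the basal counts turned to 277 higher and 39 lower, and the luminal counts to 442 and 42. Of the 61 basal reference cells, 45 lie on plate A. The median ratio over all genes was -0.91 in the basal sort (0.00 on plate B) and -0.40 in the luminal sort (-0.31 on plate C), so ratios near these values describe most genes. Leaving out a basal well gave 197 to 297 basal genes higher, since 10 CPM is then needed in 2 of 4 wells rather than 3 of 5. It gave 264 genes lower without well 80, and in the luminal sort 88 and 100 genes lower without wells 27 and 71.

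Both sorts shared 50 of the genes called higher, which is 39.4% of the basal and 12.3% of the luminal ones, and 1 of the genes called lower. Over all genes compared, 0.86% (basal) and 2.76% (luminal) were called higher. The same 12 endothelial genes chose the wells of both sorts, so this sharing is a description and no test. Of the 50, 19 are members of the gene lists described below and 31 are in none. At 10 CPM or more in all 9 wells were 7 of them: Fabp4, Cd36, Thbd, Mmrn2, Fli1, Akap12 and Slfn5. Thbd encodes thrombomodulin, the endothelial receptor that turns thrombin to anticoagulant use, Mmrn2 an endothelial matrix protein, and Fli1 an ETS transcription factor. Akap12 (ratios 6.51 and 6.15) anchors protein kinase A and Slfn5 (7.83 and 5.90) is a Schlafen protein. This group of 7 was picked out after the values were seen.

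Of the genes called higher in both sorts, 5 had ratios over 10 in each: Fabp4, Cd36, Apold1, Cd93 and Rbp7. Apold1, an early response gene of vascular endothelium (chromosome 6, 134982001 to 134986836), had 135, 1.01, 6485, 15007 and 243 CPM in the basal wells and 465, 1699, 4542 and 554 CPM in the luminal wells. All 61 basal reference cells together held 3 of its reads, and the log2 ratio without an added CPM was 16.79 there (counting interval 15.24 to 19.07). Its ratio was 12.12 in the basal and 10.39 in the luminal sort on the scale with 1 CPM added. Cd93, a surface glycoprotein of endothelium (chromosome 2, 148436651 to 148443535), had 10.9, 3.03, 19.9, 5966 and 4267 CPM in the basal wells and 538 to 3803 CPM in the luminal ones. The basal wells thus fell into 2 high and 3 low ones, yet the ratio of 10.65 kept to 9.94 or more without any single well, and it was 10.60 in the luminal sort. Rbp7, a retinol-binding protein of the same fold family as Fabp4 (chromosome 4, 149449687 to 149466462), was at 0 in basal wells 63 and 71, at 186, 1566 and 2838 CPM in wells 72, 80 and 95, and at 659 to 2310 CPM in the luminal wells. Its ratios were 10.04 and 10.13, and the basal reference held 2 of its reads.

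The start regions of these leading genes are shown because they moved together in both sorts. RefSeq gives a promoter window for 3 of the 5, on build GRCm38.p6. Each run below is the 250 bases before a start, 5′ to 3′ on the gene's strand, in lower case with the motifs AGGAAG and CGGAAG and their reverse complements CTTCCT and CTTCCG in capitals. These letters are a core bound by ETS factors such as Fli1. The windows are chr6:134981751-134982000 (plus strand) for Apold1, chr5:17835897-17836146 (minus strand) for Cd36, and chr4:149454969-149455218 (minus strand) for Rbp7. The windows of Cd36 and Rbp7 belong to starts within their loci, not to the outer end of the gene.
Apold1: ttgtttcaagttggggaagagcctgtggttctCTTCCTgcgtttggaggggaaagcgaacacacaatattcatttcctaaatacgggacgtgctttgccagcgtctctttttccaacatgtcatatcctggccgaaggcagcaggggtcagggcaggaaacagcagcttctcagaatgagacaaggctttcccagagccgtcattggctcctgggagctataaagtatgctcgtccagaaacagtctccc
Cd36: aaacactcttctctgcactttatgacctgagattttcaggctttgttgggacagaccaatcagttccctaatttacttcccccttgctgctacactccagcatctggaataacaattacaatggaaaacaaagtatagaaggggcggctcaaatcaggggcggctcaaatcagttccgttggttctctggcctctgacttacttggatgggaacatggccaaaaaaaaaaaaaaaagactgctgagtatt
Rbp7: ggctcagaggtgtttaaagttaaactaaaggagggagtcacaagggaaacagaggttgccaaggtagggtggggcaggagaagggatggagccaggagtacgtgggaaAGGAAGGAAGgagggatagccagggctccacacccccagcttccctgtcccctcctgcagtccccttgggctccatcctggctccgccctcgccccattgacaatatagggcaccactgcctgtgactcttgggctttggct
Apold1 held 1 match, Cd36 0 and Rbp7 2 that overlap. Windows were found for 31 of the 50 genes called higher in both sorts, and 22 of their 40 windows (55%) held a match, against 44.3% of the 14432 windows of all genes compared and 39.2% of all 32851 windows of the table. For the genes called higher in a single sort's comparison the shares were 49.2% (basal) and 37.7% (luminal). A match is a string of letters and not a known binding site.

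Endothelial genes that the rule did not use were taken from 3 lists, of junction and surface genes (14), transcription factors (15), and receptors and signalling genes (15). Of these 44 genes, 18 were called higher in the basal sort and 29 in the luminal sort, and 0 were called lower in either, with background shares of 0.86% and 2.76% higher. Their median ratio was 4.47 in the basal sort (5.61 on plate B) and 4.76 in the luminal sort (4.78 on plate C), against -0.91 and -0.40 for all genes. With genes at 0 in a set placed at the bound that 3 reads allow, the medians were 5.28 and 4.87. Since the wells were selected on 12 endothelial genes, these counts describe them and are no test of the label.

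Well by well, 20, 13, 20, 31 and 23 of the 44 genes reached 10 CPM in the basal wells and 28, 36, 34 and 28 in the luminal wells. The reference cells held 0 to 7 (basal, median 2) and 0 to 5 (luminal, median 2), so every endothelial well lay above every reference cell of its sort. Both sets were chosen by endothelial genes, so this order is a description and no test. The order held at equal depth: with each well thinned to 50000 reads the basal wells had 13 to 31 of the genes with a read and the reference up to 7, and the luminal wells had 27 to 34 and the reference up to 6. Basal well 82 held 14 and luminal well 33 held 9, both above all reference cells of their sort.

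**Figure D2:**
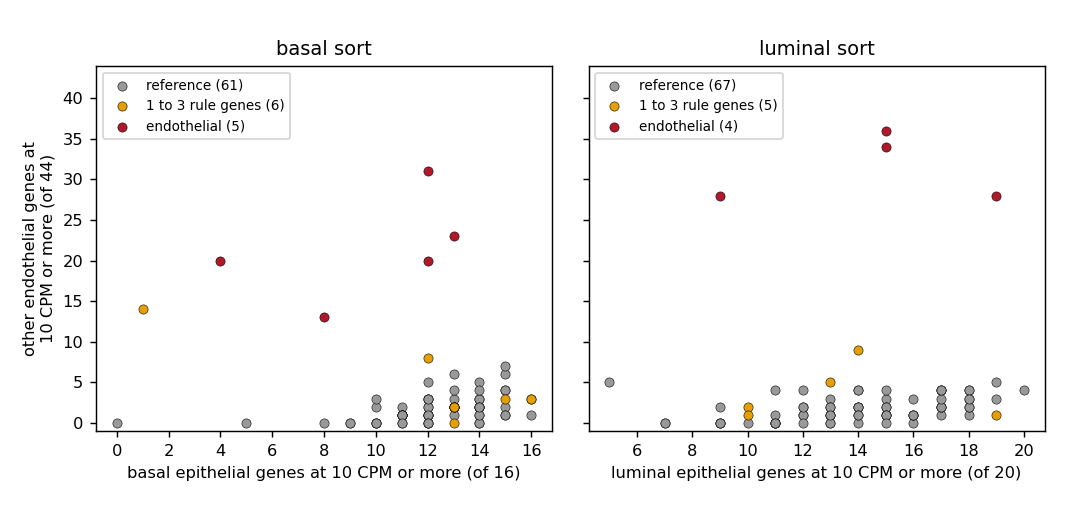
Each point is a passing well, 72 of the basal sort (left) and 76 of the luminal sort (right), placed by how many of the epithelial genes of its own sort (horizontal axis, of 16 basal or 20 luminal genes) and how many of the 44 other endothelial genes (vertical axis) reached 10 CPM. The endothelial wells lie at 13 or more on the vertical axis and the reference cells at 7 or fewer, and along the horizontal axis both sets overlap.

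Among junction and surface genes, 9 of 14 were called higher in the basal and 10 in the luminal sort. Thbd had 404 to 5518 CPM in the basal wells and 639 to 1748 CPM in the luminal wells, with ratios of 8.33 and 4.58 (11.14 in the basal sort on plate B alone). Mmrn2 had 18.6 to 696 CPM and 22.5 to 217 CPM (ratios 4.02 and 4.74, and 7.90 on plate B for the basal sort). Plvap, which forms the diaphragms of endothelial pores, had ratios of 7.79 and 4.25, and the adhesion receptor Adgrl4 7.20 and 7.22. Icam2, an adhesion molecule, was called in the luminal sort (8.42), whereas its basal value of 172 CPM came almost wholly from well 80 and its ratio was 0.19 without that well.

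Among transcription factors, 5 of 15 were called higher in the basal and 9 in the luminal sort. Fli1 (chromosome 9, 32422204 to 32543432) was past 10 CPM in every well, with 63.7, 159, 320, 266 and 372 CPM in the basal wells and 218, 180, 44.8 and 67.4 CPM in the luminal wells, and ratios of 7.80 and 6.59. The highest reference cells had 6.24 CPM (basal) and 25.3 CPM (luminal), so Fli1 did not overlap in either sort. As for Fabp4 and Cd36, the share of all genes with such a gap was not counted. Epas1, the oxygen-regulated factor HIF-2 alpha, had ratios of 3.07 and 5.99, and Mef2c, a vascular and muscle factor, 3.05 and 8.62. Klf2, which shear stress induces, was called in the basal sort alone (5.71 against 2.00), and Gata2 in the luminal sort alone (1.10 against 4.95). Their difference between the sorts was not tested. Sox18 had no more than 5.68 CPM in either sum and Erg had reads in luminal well 55 alone among the 9 wells.

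Among receptors and signalling genes, 4 of 15 were called higher in the basal and 10 in the luminal sort. Calcrl, the receptor subunit for adrenomedullin, stood out in the basal wells, with 3640, 1156, 3066, 372 and 3730 CPM against 34.3, 163, 141 and 55.4 CPM in the luminal wells (ratios 7.78 and 1.08). S1pr1, the sphingosine-1-phosphate receptor that steadies endothelial junctions, had 263 and 250 CPM in the summed wells and 0 reads in all basal reference cells. Nrp1, a co-receptor of vascular endothelial growth factor, had ratios of 4.68 and 6.05. Ednrb, the endothelin B receptor, had 235 to 602 CPM in the luminal wells (ratio 8.60) and was carried in the basal sort by well 80 (ratio 4.37, and -0.66 without it).

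The list of capillary fatty acid and caveola genes held 3 of 15 genes called higher in the basal sort (Fabp4, Cd36 and Lpl) and 7 in the luminal sort, with median ratios of 2.35 and 2.95. Gpihbp1, which holds lipoprotein lipase at the capillary wall, had 258, 1775, 0 and 1134 CPM in the luminal wells and 0 reads in the luminal reference, a ratio of at least 14.50 on the log2 scale against the floor of 3 reads over the set. In the basal wells it had 134, 1.01, 0, 0 and 820 CPM, short of the share of wells that a call needs. Lpl, the lipase itself, had 1222 CPM in basal well 63 and at most 31.8 CPM in the other basal wells, and its basal ratio of 3.37 became -0.09 without well 63. The caveola coat genes Cavin1 and Cavin2 were called in the luminal sort (3.54 and 5.41), and in the basal sort, where reference cells held 927 and 237 CPM, their ratios were 1.36 and 2.35.

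Counts of vein and artery genes split the wells, although single genes crossed the split. Of the 8 vein genes, 5 were called higher in the basal sort and 1 in the luminal sort (medians 4.75 and -0.06). Ackr1, the chemokine-scavenging receptor of venules (chromosome 1, 173331886 to 173333503), had 4619, 47.5, 4008, 0 and 0 CPM in basal wells 63, 71, 72, 80 and 95 and 0 in all 4 luminal wells, with a ratio of 10.54 in the basal sort. Selp, P-selectin, which venules show to leukocytes, had 305, 323, 3298, 1.86 and 0 CPM in the same basal wells, and in the luminal wells 46.7 CPM in well 27 and 0 in the rest. Vwf, von Willebrand factor, had 869, 293, 665, 208 and 0 CPM in the basal wells (ratio 8.03). The high values of all 3 genes lay in wells 63, 71 and 72, which held 7, 6 and 7 of the 8 vein genes at 10 CPM, against 1 in well 80, 2 in well 95 and 2 to 4 in the luminal wells. Basal reference cells held 0 to 2 and luminal ones 0 to 3. Nr2f2, the transcription factor of venous fate, was called in both sorts (4.64 and 4.12) and was missing from basal well 80.

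Of the 6 measured artery genes, 0 were called higher in the basal sort and 5 in the luminal sort (medians 3.09 and 5.73). Gja4, the arterial gap junction protein connexin 37, had 366, 7.57, 2401 and 31.3 CPM in the luminal wells, and 109 and 91.4 CPM in basal wells 80 and 95 and 0 in the other 3. Bmx, a kinase of arterial endothelium, had 96.3, 0, 279 and 1.61 CPM in the luminal wells and 215 CPM in basal well 80 alone. Hey1, a Notch target of arteries, had 29.0, 0, 156 and 59.4 CPM in the luminal wells and 66.1 CPM in basal well 80. Artery genes past 10 CPM numbered 6 in basal well 80 and 5, 1, 5 and 3 in luminal wells 25, 27, 55 and 71, against 0 to 2 in the other basal wells and at most 1 in any reference cell. By these counts, wells with many vein genes and wells with many artery genes were thus different wells. Single genes did not all follow. The artery gene Efnb2 had 706, 423 and 0 CPM in basal wells 63, 71 and 72, against 800 CPM in well 80. The vein gene Nr2f2 had 971, 53.0, 12.65 and 462 CPM in luminal wells 25, 27, 55 and 71. The split by counts was read off after the values were seen. The lymphatic list did not follow: 0 of 4 measured genes were called higher in either sort and 1 was called lower in the basal sort (Reln), Prox1 reached at most 5.62 CPM, and Lyve1 and Flt4 had no read in any of the 9 wells.

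The mural cell list held reads in some of the wells. Of 11 measured pericyte genes, 2 were called higher in the basal sort (Pdgfrb and Anpep) and 5 in the luminal sort (medians 4.53 and 4.05). Pdgfrb, the receptor by which pericytes follow endothelium, had 138, 0, 139, 0 and 34.5 CPM in the basal wells and 298, 217, 0 and 147 CPM in the luminal wells. Abcc9, a potassium channel subunit of pericytes, had 234, 126, 0 and 262 CPM in the luminal wells (ratio 7.35). Pericyte genes past 10 CPM numbered 3, 0, 5, 0 and 3 in the basal wells and 7, 4, 0 and 8 in the luminal wells, against at most 2 and 3 in a reference cell. Vtn, vitronectin, came from basal well 72 (2036 CPM) and its basal ratio of 9.04 was -0.04 without it. Luminal wells 25 and 71 and basal well 72 thus held a set of pericyte transcripts that basal wells 71 and 80 and luminal well 55 lacked.

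Of the 13 basement membrane genes, 0 were called higher in the basal sort and 8 in the luminal sort, and the difference between the sorts was not tested. The median ratio was -1.42 in the basal sort, where it turned to 0.36 on plate B alone, and 3.88 in the luminal sort (3.53 on plate C). Collagen IV chains are made by basal cells as well as by endothelium: Col4a1 had 299 CPM in the basal wells against 1112 CPM in the basal reference, and 554 CPM in the luminal wells against 32.3 CPM in the luminal reference. Sparc, a collagen-binding matrix protein, had 689 to 1925 CPM in the basal wells and 768 to 1990 CPM in the luminal wells, so the level in the 9 wells was alike in range, while the references held 1783 and 94.6 CPM. Sparcl1 had 616 to 1737 CPM in the luminal wells (ratio 9.52) and 626 and 463 CPM in basal wells 80 and 95.

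RNA of the epithelium they were sorted as was found in the 4 luminal wells and, at varied levels, in the basal wells, with little in basal well 72. In the luminal wells Krt8 had 885, 1102, 950 and 632 CPM and Krt18, its partner keratin (chromosome 15, 102028216 to 102032026), had 1242, 1573, 1917 and 1222 CPM, within the range of reference cells and with ratios of -0.76 and -1.11. Prlr, the prolactin receptor, had 108, 1170, 2066 and 4141 CPM and the casein Csn3 1.18, 1771, 2009 and 2598 CPM, so both were high in wells 27, 55 and 71 and low in well 25. Of 20 luminal epithelial genes, 9, 15, 15 and 19 reached 10 CPM in the luminal wells, against 5 to 20 (median 14) in the reference. Their summed level was 4457 to 12395 CPM in the luminal wells against a median of 18428 CPM in the reference, and 57 of 67 reference cells lay at or above the highest of these wells. The median ratio of the list was -1.57 and 2 of the 20 genes were called lower, the estrogen receptor Esr1 (-3.31) and the factor Ehf (-3.88).

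In the basal wells the basal program varied more. Acta2, smooth muscle actin, had 3726, 1279, 49.7, 1081 and 1319 CPM in wells 63, 71, 72, 80 and 95, and Krt14 had 269, 177, 0, 447 and 895 CPM. Basal epithelial genes past 10 CPM numbered 12, 8, 4, 12 and 13 of 16, against 0 to 16 (median 12) in the reference, and their summed level was 13942, 7523, 293, 3713 and 7774 CPM against a reference median of 21083 CPM. In well 72 it was thus below all basal reference cells but 1, and the just excluded well 82 had 45.2 CPM. In well 63 the largest parts of the sum were the contractile genes Acta2, Tagln (3376 CPM) and Mylk (2683 CPM). Krt5 had 26.4 and Krt17 1.55 CPM there, and the pericyte genes Anpep and Rgs5 had 1128 and 407 CPM. Which cell the contractile transcripts came from was not tested. The median ratio of the basal epithelial list was -2.05 (-1.77 on plate B), and 1 gene was called lower, Krt5 (-3.82). Luminal epithelial genes were no higher than in basal reference cells, with 1 to 2 of 20 past 10 CPM in each well, a median ratio of -2.52 (-0.51 on plate B) and Krt8 called lower (-4.60). In the luminal wells, 3 of 16 basal epithelial genes were called higher, Mylk (6.17), Myl9 (5.17) and Snai2 (4.35). Mylk had 1740, 165, 67.1 and 162 CPM there and Myl9 808, 0, 0 and 36.9 CPM, so that the ratio of Myl9 was 0.95 without well 25. The wells with Myl9 reads, 25 and 71, also held the most pericyte genes of the luminal wells. The source of Mylk and Myl9 in them was not tested. The keratins Krt5 and Krt14 had no read in any luminal endothelial well, and Acta2 had 828 CPM in well 25 and under 1 CPM in the other 3.

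**Figure D3:**
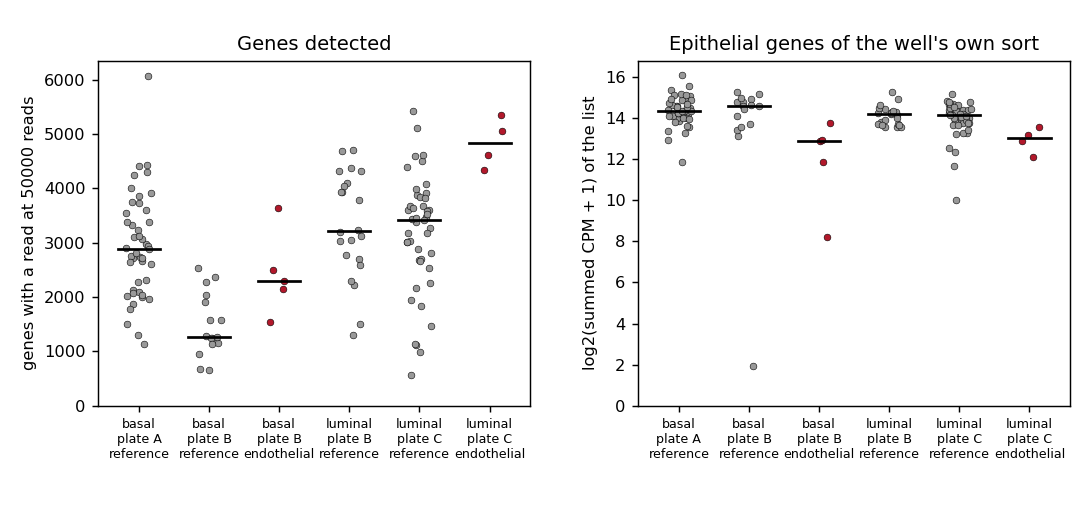
Left, genes with a read when each well is thinned to 50000 reads. Right, log2 of the summed CPM (plus 1) of 16 basal or 20 luminal epithelial genes of the well's own sort. Points are wells by sort, plate and set (reference grey, endothelial red) and bars are medians. On the left the luminal endothelial wells lie at 4345 to 5356 genes, and on the right basal well 72 lies lowest among the endothelial wells.

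Gene detection in the luminal endothelial wells was above that of most reference cells, while in the basal sort the comparison depended on the plate. At 50000 reads the luminal wells had 4345, 5356, 4622 and 5056 genes with a read, against a median of 3382 in the reference (559 to 5430), and 9 of 67 reference cells reached the lowest of the 4. The basal wells had 2145, 2298, 1539, 3639 and 2505 genes, against a median of 1273 (650 to 2537) in the 16 reference cells of plate B, 7 of which reached the lowest of the 5, and a median of 2892 in the reference cells of plate A. Over all 61 basal reference cells the median was 2607, and 49 of them reached the lowest of the 5 wells. The paper reports that capture sites were seen by direct viewing to hold a single cell before sequencing. In these counts, whether a well held more than 1 cell was not tested, and no doublet caller was run. Total counts were not high: after removal of mitochondrial and ribosomal protein genes the basal wells had 643380 to 1507734 reads (reference median 1229373) and the luminal wells 792313 to 1692126 (reference median 1446291). Mitochondrial reads made up 3.46% to 16.5% in the basal and 3.50% to 16.4% in the luminal wells, against reference medians of 5.81% and 7.30%.

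The sorting antigens were read on the RNA side. Itgb1, which encodes CD29, had 271 to 2132 CPM in the basal wells (ratio 0.87) and 388 to 666 CPM in the luminal wells (1.35). Cd24a had 423, 330, 0.663, 26.1 and 0 CPM in the basal wells, with wells 72 and 95 near 0, and 270 to 621 CPM in the luminal wells. Epcam, the epithelial adhesion molecule, had 838, 810, 0.663, 3.73 and 42.7 CPM in the basal wells and 252 to 1539 CPM in the luminal wells. Well 72 thus had hardly any Krt14, Cd24a or Epcam. Ptprc, the gene of CD45, had no read in any of the 9 wells.

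Markers of other cells that the sort could let through were counted as well. Of 14 leukocyte genes only 4 passed the gene filter, 0 were called, and at 10 CPM there was 1 gene in luminal well 55 (Cd68) and 0 in the other 8 wells. Of 8 genes of adipocytes, Fabp4's other known home, only 2 passed the gene filter. These 2 summed to 30.2 CPM in the basal and 0.0591 CPM in the luminal reference. Adipoq, Plin1, Plin4, Cfd and Cidec among the 8 had 0 reads in all 9 wells, which says little for genes so low in the reference. The just excluded basal well 82 had 543.5 CPM of Plin4. Fibroblast genes past 10 CPM numbered 0 to 2 of 12 in the basal wells, and 0, 3, 9 and 3 in luminal wells 25, 27, 55 and 71, with a summed level of 6864 CPM in well 55 (Dcn 2969 CPM and Mfap5 2110 CPM) and 3.55 to 304 CPM in the other 3. Reference cells held up to 12 of these genes in both sorts. Luminal well 55 therefore carried endothelial, fibroblast and luminal transcripts at once. Without it, 325 genes were called higher in the luminal sort and the median ratio of the 44 endothelial genes was 4.42. Cell cycle genes past 10 CPM numbered 1, 6, 0, 1 and 6 of 11 in the basal and 8, 5, 2 and 3 in the luminal wells (reference medians 1 and 1, ranges 0 to 11), with 0 called. Of 11 immediate early and stress genes 0 were called, with Fos at 552 to 2366 CPM and 2399 to 4133 CPM with ratios of 0.44 and 0.39. Counts of 0 called in lists of this size lie near the shares over all genes, 0.86% (basal) and 2.76% (luminal) called higher.

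The remaining genes named by size were mixed in kind. In the basal sort they were Ackr1 and Selp of the veins, Ppp1r16b (10.52), a phosphatase regulator of endothelium that had 0 CPM in well 71 and 1542 to 5080 CPM in the other 4, Ebf1 (10.08), Unc45b (9.03), Ctla2a (8.90) and Depp1, which had 569, 0, 0, 970 and 735 CPM and 0 reads in the basal reference, a ratio of at least 13.39. Reads of Ctla2a may be shared with its near copy Ctla2b, which was also called in both sorts, as may those of Tgtp1 and Tgtp2 and of Gimap4 and Gimap6 with their families, because how multiply mapped reads were counted was not given. Ctla2b, Tgtp1, Tgtp2, Gimap4 and Gimap6 lie outside the naming rule and are given for this reason alone. In the luminal sort they were Sparcl1, Gpihbp1, Gja4, Adgrf5 (8.90), an adhesion receptor of endothelium, Rgs4 (8.85, with 1 reference read), Srgn (8.83), the proteoglycan serglycin, and Mef2c. Over the 12 named in each sort, the lowest value without any single well was 6.54 in the basal sort (Unc45b) and 7.26 in the luminal sort (Rgs4).

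Among genes called lower in the basal wells at 100 CPM or more, the lowest was Slpi, a secreted protease inhibitor, with 0 to 0.663 CPM in the 5 wells, 1071 CPM in the summed reference and 10 CPM in 36 of 61 reference cells (ratio -9.83, and -9.34 on plate B). Rnase4 (-8.29), smooth muscle gamma-actin Actg2 (-8.18, at most 1.55 CPM in a well), Tfg, Anxa4, Arhgap1, Pard6g, Orc4, Sec61a1, Psmd4, Fbn2 and Ppp2r5c followed, at -7.63 to -7.09. In the reference each of the 12 had at least 10 CPM in 31 to 46 of 61 cells, so a count of 0 to 1 among 5 wells rests on few wells, and Arhgap1 and Pard6g had no read in them. On plate B alone the ratios were between -9.34 and -4.49. In the luminal sort the lowest of the called genes at 100 CPM or more were Ado (-6.25), Iqgap2 (-5.64), Vdr, the vitamin D receptor (-5.48), Gm20016, Phyh, Bex3, Cs, Stip1, Polr2g, Tcn2, Plin2 (-4.01), a lipid droplet coat gene, and Ehf (-3.88). Plin2 had 1.77, 126, 0.973 and 20.9 CPM in the luminal wells and up to 4506 CPM in a reference cell.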

How the data were processed

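Single basal and luminal mammary cells were profiled by full-length RNA-seq, 1 library per cell, without molecular identifiers. The authors aligned read pairs to mm10 with Subread and counted them per gene with featureCounts on a RefSeq annotation. Versions, strand and the treatment of multiply mapped reads are not given in the sources used here. The deposited values are raw read counts per gene and cell, 3105 to 3784407 per cell (median 1350612.5), and the median depth resolves single genes to about 1 CPM in a well.

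Of 27179 gene identifiers, 25275 were matched to symbols through RefSeq GRCm38.p6, and the other 1904 held 1.94% of counts. After removal of 15 mitochondrial and 123 ribosomal protein genes, cells needed 50000 reads and 1000 genes (basal) or 100000 reads and 1500 genes (luminal). Genes needed 1 CPM in 3 cells, which 14774 did, and the 11 rule genes among them were set aside, leaving 14763. Counts were summed over each set, scaled to CPM, and compared as a log2 ratio with 1 CPM added. A call needed a log2 ratio of 3 in size and 10 CPM in 50% of the wells of the higher set. Named genes were the rule genes, Fabp4, Cd36, members of 21 lists (232 genes, 206 past the filter), and in each sort the 12 highest and 12 lowest ratios among genes with 100 CPM or more and with 10 CPM in 50% of the wells of the higher set. The members and lists were chosen with earlier results of these data known, and genes outside this rule are said to be so. Intervals are exact at 95%, and a set with 0 reads was placed at a floor of 3 reads over the set. Since no mouse is named, no test between the sets of wells was run.

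Promoter windows are RefSeq's 250 bases before a start. Alternatives changed the rule, filters, scaling (edgeR 4.0.16 TMM and DESeq2 1.42.0 size factors, with no test), added CPM, reference, plate and wells. Scripts used Python 3.11.15, numpy 2.4.6, scipy 1.17.1, pandas 2.3.3 and R 4.3.3. The ratio step was tried on simulated counts that carry counting error only, so this trial does not cover the spread between wells.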

Additional observations from a re-analysis of the deposited data

Results flagged for a closer look

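Within the endothelial wells of a sort, 52 sets of values were searched for a well far from the others, and 4 were found. A well was marked by its gap to the nearest well as a share of the full range. The cut-off marks about 1 in 20 sets of independent normal values, which these wells and counts are not. The search is therefore a description, and no chance rate applies to it. Mitochondrial reads made up 16.5% in basal well 63, against 3.46% to 6.68% in the other 4 basal wells. Ppp1r16b was at 0 CPM in basal well 71 and at 1542 to 5080 CPM in the other basal wells. Vein genes at 10 CPM numbered 4 of 8 in luminal well 27 and 2 in each of the other luminal wells, and stress genes 10 of 11 in luminal well 55 against 11 in the others, so both differ by 1 or 2 genes. In both of these sets the other wells were tied, so any gap equals the full range.

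Wells below the depth thresholds enter no comparison of the report. Of the 24 such basal wells, 6 held 2 or more of the 12 rule genes at 10 CPM, against 1 of the 67 passing basal cells outside the endothelial wells. In a shallow well 10 CPM can be a single read, and the part of depth in this count was not tested.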

How the results depend on the processing

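Against plate B alone, 4 list medians of the basal sort changed sign: basement membrane (-1.42 to 0.36), cell cycle (-1.06 to 0.54), sorting antigens (-0.49 to 0.14) and tip cell genes (-0.11 to 0.23). The ratios of Lpl, Vtn and Ednrb in the basal sort turned negative without a single well, as given above. The epithelial and endothelial list medians and the leading genes kept their direction. The balance of gene counts in the basal sort did not: 127 higher and 170 lower became 277 higher and 39 lower on plate B alone. Of the values of the main results under the alternatives, 202 stayed within their limits and 35 moved, and for single named genes 515 stayed and 97 moved. The limit was a fixed fold for counts. For ratios it was the standard deviation between the endothelial wells on the log2 scale. That limit is loose where wells differ widely, as for Apold1 with 1.01 to 15007 CPM in the basal wells. The number of endothelial wells was 4 to 6 in the basal and 4 to 5 in the luminal sort. Genes higher in the basal wells numbered 127, against 297 with 6 rule genes needed, 277 on plate B alone, 234 at a log2 ratio of 2, and 197 to 297 with a well left out. Genes lower there numbered 170, against 105 with mitochondrial and ribosomal protein genes kept, 99 by median-of-ratios scaling, 112 when 10 CPM was added, 39 on plate B alone, 337 and 91 at log2 ratios of 2 and 4, and 157 to 264 with a well left out. Genes higher in the luminal wells numbered 408, against 162 with 10 CPM added and 726 and 259 at log2 ratios of 2 and 4. Genes lower there numbered 43, against 27 with no cell filter, 27 by median-of-ratios scaling, 19 when 10 CPM was added, 143 and 14 at log2 ratios of 2 and 4, and 50 to 100 with a well left out. The median of luminal genes in the basal sort was -2.52, against -1.43 with rule genes at 1 CPM, -2.23 with TMM, -1.54 by median-of-ratios scaling, -4.77 when 0.1 CPM was added, -0.67 when 10 CPM was added, -0.51 on plate B alone and -2.80 to -2.42 with a well left out. With 0.1 CPM added, the median of basal genes in the luminal sort moved from -0.53 to -2.43, and that of the other endothelial genes in the luminal sort from 4.76 to 6.42 (2.39 with 10 CPM added). More CPM added and a higher ratio needed lower the counts by construction, and for the other settings the cause was not tested. Plate A of the basal and plate B of the luminal sort hold no endothelial well and gave no value. No paired analysis was possible because no test between the sets was run and a number that both sorts share only counts cells.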

Other observations

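Basal well 82, just below the rule, held 27611 CPM of the 44 other endothelial genes, more than any of the 9 endothelial wells (5117 to 20559 CPM). It had 10457 CPM of Fabp4, 14494 CPM of Calcrl, 9319 CPM of Vwf and 8322 CPM of Ackr1, and 9909 CPM of the MHC class II gene H2-Aa, which had no read in the 9 wells. Its basal epithelial genes summed to 45.2 CPM and it had 750 genes at 50000 reads. Luminal well 33, with 2 rule genes, held 10 of 12 fibroblast genes at 10 CPM.

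Tip cell genes were called higher in 0 of 5 cases in the basal sort and in 1 of 5 in the luminal sort (Angpt2). Of the 7 MHC genes measured, 0 were called in either sort. Over all genes 0.86% were called higher in the basal and 2.76% in the luminal sort, so 0 of 7 is near that share. Top2a, a gene of dividing cells, had 562 and 215 CPM in basal wells 71 and 95 and 686 CPM in luminal well 25, and at most 16.4 CPM in the other 6 wells.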
